A study of Saccharomyces cerevisiae with 8 samples.

Results

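The 10 genes described here, FKS1, GSC2, KRE6, GAS1, BGL2, CRH1, UTR2, CHS1, CHS3 and GFA1, make and remodel the glucan and chitin of the budding yeast cell wall. They were chosen by function, with earlier results of these data known, as the probe sets that the platform's gene table assigns to those symbols. They make up 10 of the 5392 S. cerevisiae genes tested. Each had 1 probe set, and each exceeded the background on all 8 arrays. Their signals were compared between the CDC34tm strain (RRC85) and its isogenic wild type (WT, DBY2059), both MATα, with 4 separately grown cultures of each and 1 Affymetrix Yeast 2.0 array per culture. CDC34 encodes the ubiquitin-conjugating enzyme of the SCF ubiquitin ligases; what the tm allele changes in that enzyme is not stated in the labels. All cultures grew from stationary phase for 3 to 4 doublings at 30 °C in a defined medium of 2% dextrose with 0.25% glutamine and 25.2 mg/L leucine. A nourseothricin resistance cassette (NatR) marks the CDC34tm allele, and the source names add, as variables not assigned to a strain, a leu2 allele and a partial disruption in the 3' part of PST1. Only for WT does the design text name that leu2 allele. None of these differences can be told apart from the CDC34tm allele itself, and PST1 matters here because its product is a cell wall protein. PST1 read 870.2, 672, 790.4 and 810.2 on the CDC34tm arrays against 1536, 1733, 1548 and 1991 in WT, a 2.14-fold lower signal (limma adjusted p = 7.34e-05).

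The yeast wall is built on a network of beta-1,3-glucan, which an enzyme of the plasma membrane spins out of UDP-glucose. Branches of beta-1,6-glucan tie mannoproteins to that network, and chitin, made from UDP-N-acetylglucosamine, is laid down mainly in the ring at the bud neck and in the septum. Enzymes in the wall then elongate, cut and crosslink the chains, and cells under wall stress are known to make more chitin and to switch on a second glucan synthase gene, GSC2.

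The values are MAS5 signals, a linear measure of hybridisation per probe set. Scaling to a common level was inferred from their 2% trimmed mean, which was 1000 on every array. The median S. cerevisiae signal was 1162 to 1244 across arrays, against a background of 12.3 to 14.6. Levels of different genes cannot be compared on this scale, so each gene is set against itself. Signals of a strain are listed in the order of replicates 1 to 4. WT replicates 1 and 4 stood apart from WT replicates 2 and 3: the summed signal of 20 heat shock genes was 128889 and 132051 on the former, 81935 and 81836 on the latter, and 69169 to 70432 on the CDC34tm arrays. All 20 were above background on all 8 arrays. The part of that difference in the results below was not tested, and calls that either pair of WT cultures decided are given with and without that pair. All 4 MATα markers were bright in both strains, with summed signals of 34066 to 37176 in CDC34tm and 35824 to 45311 in WT. The 5 MATa markers summed to 669 to 787 and 554 to 720 and were also above background on all 8 arrays.

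In the CDC34tm strain 3 of the 10 genes rose, 1 fell and 6 did not pass the test. GSC2 rose by 2.96-fold, CRH1 and KRE6 rose by smaller amounts, and GFA1 fell slightly. Calls were made at a limma adjusted p under 0.05 over all 5437 tested probe sets. By that rule 38.6% of all tested probe sets were called, 18.9% higher and 19.7% lower, so 4 calls among 10 genes is close to the share of the whole array. The median log2 fold change of the 10 genes was 0.07, against 0.00 for all tested probe sets, and the changes ran from -0.18 to 1.57. For 7 of the 10 genes the 2 strains' signals were fully separate, 4 higher and 3 lower in CDC34tm, where 39.5% of all tested probe sets showed no overlap, 19.1% higher and 20.5% lower. The log2 signals of these genes had a median SD of 0.0801 among WT and 0.0440 among CDC34tm arrays, against 0.131 and 0.0885 over all tested probe sets, though GSC2 (0.234), CRH1 (0.221) and CHS1 (0.193) varied more than that median in WT. The lowest signal of the 10 genes was 1289, above the median of every array (at most 1244). The part of signal level in their smaller median spread was not tested. In bulk RNA, a different share of cells at some stage of the cycle and a different amount of mRNA per cell cannot be told apart.

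**Figure D1:**
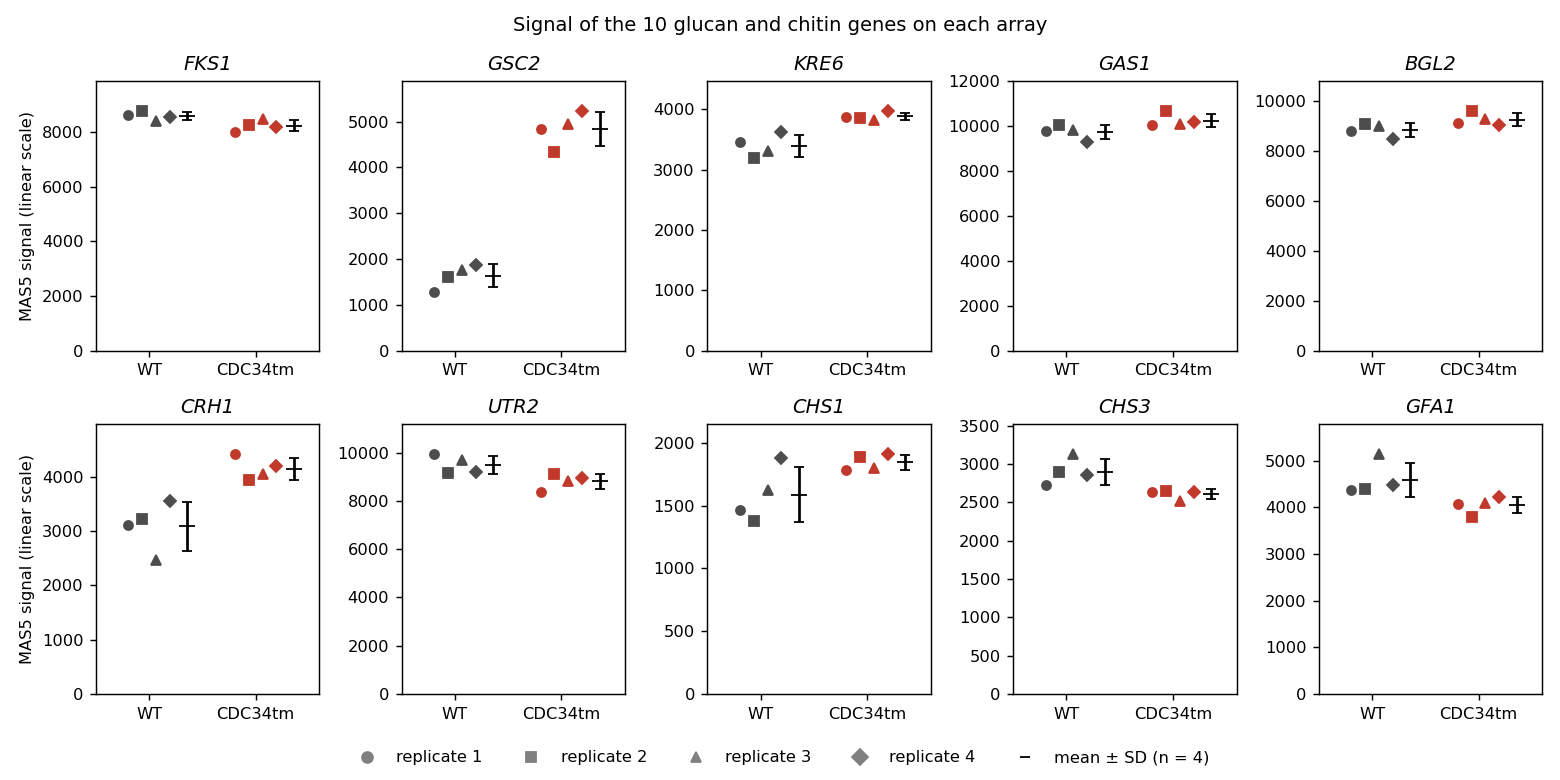
MAS5 signal (linear scale from 0) of each of the 10 genes on the 4 WT and 4 CDC34tm arrays, with marker shapes for replicates 1 to 4 and the mean ± SD (n = 4) beside them. GSC2 sits between 4340.0 and 5230.3 in CDC34tm, above its WT signals of 1289 to 1875, whereas the other 9 genes differ by less.

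The beta-1,3-glucan synthases changed unequally. FKS1 (YLR342W) encodes the catalytic subunit used in growth on glucose, and it read 8007, 8265, 8471 and 8199 on the CDC34tm arrays and 8624, 8771, 8399 and 8565 on the WT arrays. Only CDC34tm replicate 3 lay within the WT range, and the other 3 CDC34tm arrays lay below it. The means were 8236 ± 191 in CDC34tm and 8590.1 ± 154 in WT (mean ± SD, n = 4 per strain), and FKS1 did not pass the test, with a log2 fold change of -0.06 (95% interval -0.14 to 0.02, limma adjusted p = 0.209).

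GSC2 (YGR032W), also known as FKS2, encodes the alternative catalytic subunit, known to be induced under wall stress, on poor carbon sources and in response to mating pheromone. It read 4844, 4340.0, 4936 and 5230.3 in CDC34tm and 1289, 1618, 1756 and 1875 in WT. Every CDC34tm culture was more than 2-fold above every WT culture. The mean rose from 1634 ± 253 in WT to 4837 ± 370.4 in CDC34tm (mean ± SD, n = 4 per strain), a log2 fold change of 1.57 with a standard error (SE) of 0.111 (2.96-fold, 95% interval 1.32 to 1.81 on the log2 scale, limma adjusted p = 1.33e-05). This was the 12th largest rise among the 5437 probe sets tested. Leaving out WT replicates 1 and 4 gave 1.51, leaving out WT replicates 2 and 3 gave 1.62, and the rise remained past the threshold in all 20 alternatives, with log2 fold changes from 1.46 to 1.64.

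Since FKS1 and GSC2 lie on the same arrays, their difference can be taken within each culture. The log2 difference GSC2 minus FKS1 was -0.72, -0.93, -0.78 and -0.65 on the CDC34tm arrays and -2.73, -2.43, -2.25 and -2.18 on the WT arrays, without overlap. It shifted by 1.63 (exact two-sided permutation test over 70 labelings, p = 0.0286, and 0.0286 adjusted over the 4 pairs compared in this way). That is the smallest p which 4 against 4 arrays allow. The 4 pairs were chosen with earlier results of these data known. Their p-values describe the shifts and are not independent evidence for them. The coding sequences of FKS1 and GSC2 are alike, and how far the probes of one gene also bind the other's RNA was not tested.

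**Figure D2:**
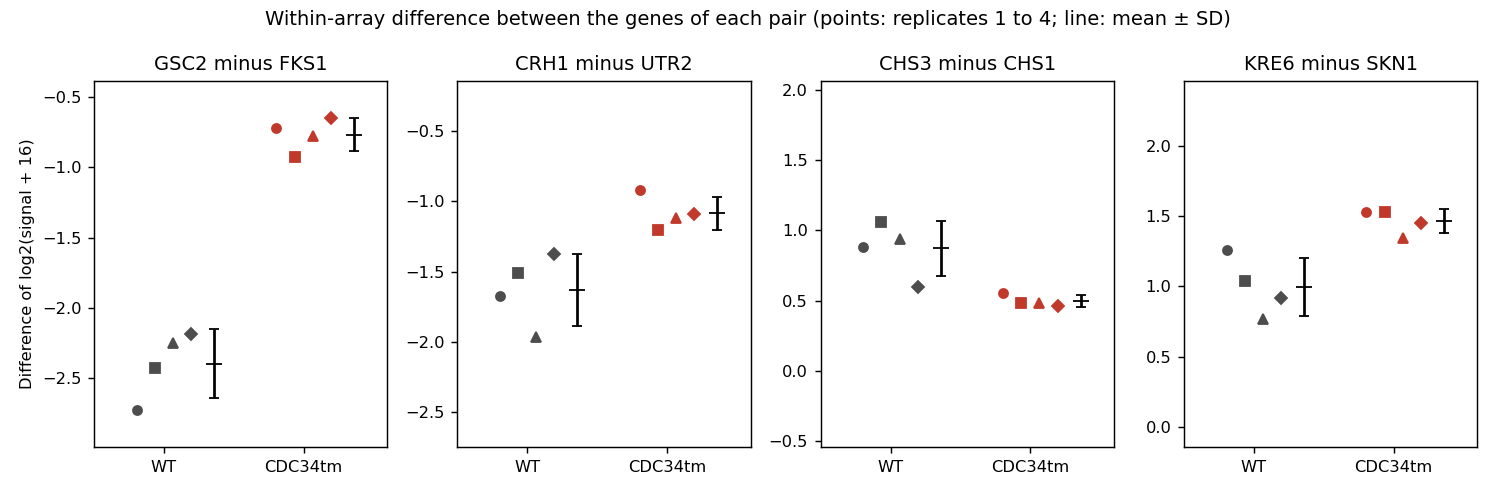
Within-array difference of log2(signal + 16) between the genes of 4 pairs, one point per array with the mean ± SD (n = 4), all panels spanning the same range of log2 units. In all 4 pairs the CDC34tm and WT arrays do not overlap, with the widest shift in GSC2 minus FKS1 (1.63). The pairs were chosen with earlier results of these data known. How many gene pairs over the whole array show no overlap was not counted, and 39.5% of single tested probe sets showed none.

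KRE6 (YPR159W) encodes a protein needed for beta-1,6-glucan synthesis, and SKN1 is its paralog. KRE6 read 3872, 3862, 3833 and 3975 in CDC34tm and 3456, 3201, 3315 and 3626 in WT. The CDC34tm arrays clustered tightly above the whole WT range, and the mean rose from 3399 ± 184 in WT to 3885 ± 62.0 in CDC34tm (mean ± SD, n = 4 per strain, log2 fold change 0.19, SE 0.0527, limma adjusted p = 0.0167). Leaving out WT replicates 1 and 4 gave a rise of 0.25 (adjusted p = 0.00491). With WT replicates 2 and 3 left out instead, 0.13 remained and the test was no longer passed (adjusted p = 0.0654), nor did it without CDC34tm replicate 4 (0.18, adjusted p = 0.0566). SKN1 read 1329, 1330, 1501 and 1441 in CDC34tm and 1432, 1552, 1942 and 1912 in WT, and did not pass the test (log2 fold change -0.27, limma adjusted p = 0.0623). CDC34tm replicates 3 and 4 lay within its WT range. The within-array difference KRE6 minus SKN1 was 1.46 ± 0.0879 in CDC34tm and 1.00 ± 0.209 in WT (mean ± SD, n = 4 per strain). It shifted by 0.47, with no overlap between the strains (exact two-sided permutation p = 0.0286, and 0.0286 over the 4 pairs). SKN1 passed the test in 4 of the 20 alternatives, among them without WT replicate 1 and without WT replicates 1 and 4.

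Among the enzymes that elongate and cut beta-1,3-glucan in the wall, GAS1 (YMR307W) encodes the main glucanosyltransferase, anchored by a glycolipid at the cell surface. It read 10058, 10669, 10074 and 10174 in CDC34tm and 9790.3, 10054, 9811 and 9303 in WT. The strains did not overlap, though the lowest CDC34tm array and the highest WT array nearly met. The log2 fold change was 0.07 (95% interval -0.01 to 0.16), which did not pass the test (limma adjusted p = 0.160). After the trend of signal against gene length was removed it was 0.14 and passed (adjusted p = 0.0207). BGL2 (YGR282C) encodes an abundant endo-beta-1,3-glucanase of the wall. It read 9115, 9611, 9272 and 9054 in CDC34tm and 8813, 9104, 9027 and 8482 in WT. CDC34tm replicate 4 lay within the WT range and the others above it. Its log2 fold change of 0.06 did not pass the test (95% interval -0.02 to 0.15, limma adjusted p = 0.215).

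CRH1 (YGR189C) and UTR2 (YEL040W) encode related transglycosylases that crosslink chitin to glucan. CRH1 read 4412, 3943, 4051 and 4189 in CDC34tm and 3108, 3214, 2463 and 3542 in WT. Every CDC34tm culture was above every WT culture, and the WT cultures were spread more widely than those of CDC34tm on the log2 scale (SD 0.221 against 0.0696). The mean rose from 3082 ± 452 in WT to 4149 ± 202 in CDC34tm (mean ± SD, n = 4 per strain), a log2 fold change of 0.44 with an SE of 0.0999 (1.35-fold, limma adjusted p = 0.00745). The size of the rise depended on the WT cultures: leaving out WT replicates 1 and 4 gave 0.56, and leaving out WT replicates 2 and 3 gave 0.32, past the threshold both times.

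UTR2 moved the other way without passing the test. It read 8379, 9118, 8812 and 8930 in CDC34tm and 9933, 9166, 9676 and 9204 in WT. All CDC34tm arrays lay below all WT arrays, by a narrow margin between CDC34tm replicate 2 and WT replicate 2. The log2 fold change was -0.11 (95% interval -0.20 to -0.01, limma adjusted p = 0.0734), and quantile normalization brought it just past the threshold (-0.10, adjusted p = 0.0446). CRH1 minus UTR2 was -1.08 ± 0.118 in CDC34tm and -1.63 ± 0.256 in WT (mean ± SD, n = 4 per strain). That is a shift of 0.55 without overlap (exact two-sided permutation p = 0.0286, and 0.0286 over the 4 pairs).

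**Figure D3:**
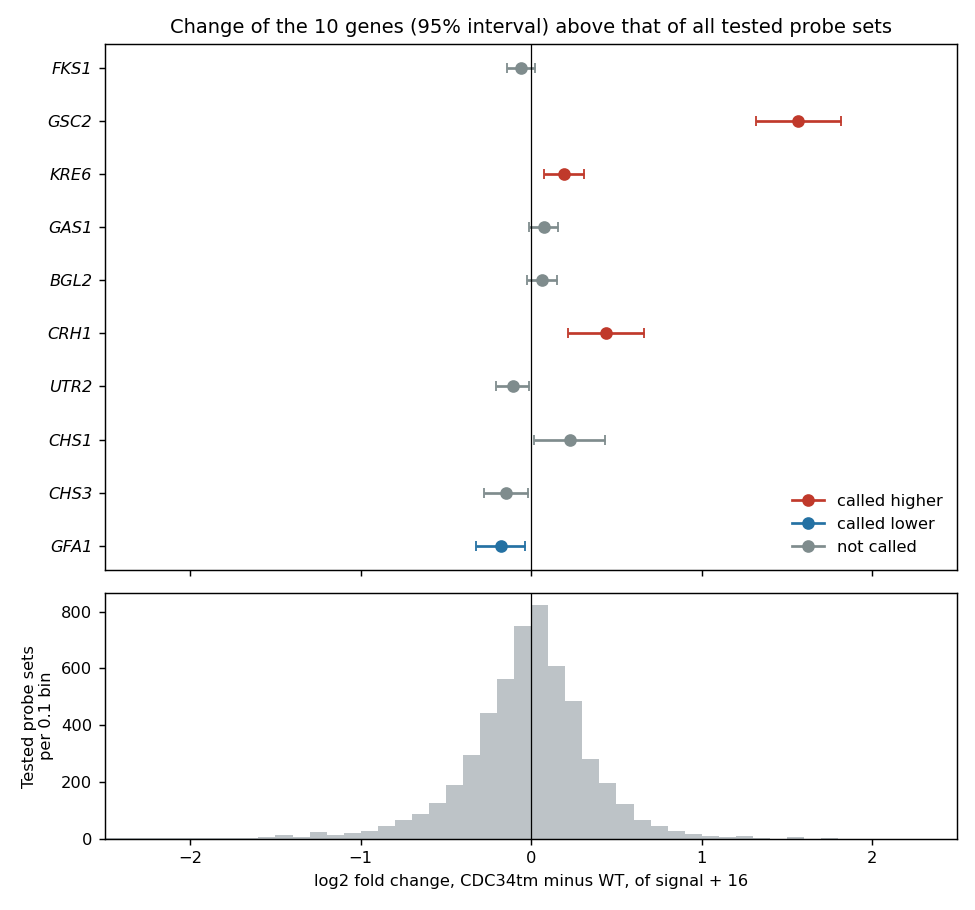
Top, log2 fold change (CDC34tm minus WT, of signal + 16) of each gene with its 95% interval, coloured by whether it was called. Bottom, the number of tested probe sets per bin of 0.1 on the same axis from -2.5 to 2.5; GSC2 at 1.57 lies in the thin upper tail, and the other 9 genes, from -0.18 to 0.44, lie within the bulk.

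Of the chitin synthases and the precursor gene, CHS1 was higher and CHS3 and GFA1 were lower, and GFA1 alone was called. CHS1 (YNL192W) encodes a synthase that repairs the wall after cell separation. It read 1787, 1885, 1797 and 1910.1 in CDC34tm and 1468, 1377, 1623 and 1876 in WT. WT replicate 4 reached the level of the CDC34tm arrays and the other 3 WT cultures lay below them all. The log2 fold change of 0.23 did not pass the test with all arrays (95% interval 0.02 to 0.43, limma adjusted p = 0.0797). With WT replicate 4 left out it was 0.31 (adjusted p = 0.0133), and with WT replicates 1 and 4 left out 0.30 (adjusted p = 0.0147), both past the threshold. With WT replicates 2 and 3 left out it was 0.15 (adjusted p = 0.208).

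CHS3 (YBR023C) encodes the synthase that makes most of the chitin in the wall, at the bud neck ring and in the lateral wall. It read 2639, 2649, 2517 and 2634 in CDC34tm and 2723, 2892, 3129 and 2854 in WT. The 4 CDC34tm arrays were all lower, within a narrow band. The log2 fold change was -0.15 (95% interval -0.28 to -0.02) and did not pass the test (limma adjusted p = 0.0640). Leaving out WT replicate 1 gave -0.18 (adjusted p = 0.0422) and leaving out WT replicates 1 and 4 gave -0.20 (adjusted p = 0.0249), past the threshold. Leaving out WT replicates 2 and 3 gave -0.09 (adjusted p = 0.205). CHS3 minus CHS1 was 0.50 ± 0.0424 in CDC34tm and 0.87 ± 0.195 in WT (mean ± SD, n = 4 per strain), so the pair shifted by -0.37 without overlap (exact two-sided permutation p = 0.0286, and 0.0286 over the 4 pairs). Leaving out WT replicates 1 and 4 gave a shift of -0.50 and leaving out WT replicates 2 and 3 one of -0.25, group sizes at which no p under 0.133 can be reached.

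GFA1 (YKL104C) encodes the first and rate-limiting enzyme of the pathway to UDP-N-acetylglucosamine. It read 4084, 3799, 4094 and 4226 in CDC34tm and 4379, 4402, 5142 and 4471 in WT. All CDC34tm arrays were lower, and WT replicate 3 was high against the other 3 WT arrays. The mean fell from 4599 ± 364 in WT to 4051 ± 180.1 in CDC34tm (mean ± SD, n = 4 per strain, log2 fold change -0.18, SE 0.0640, limma adjusted p = 0.0486). This call did not hold when WT replicate 3 (-0.13, adjusted p = 0.0967) or WT replicate 4 (-0.19, adjusted p = 0.0667) was left out, or any 1 of the CDC34tm arrays (adjusted p from 0.0676 to 0.113). Nor did it hold without WT replicates 2 and 3 (-0.13, adjusted p = 0.102), whereas GFA1 was called when WT replicates 1 and 4 were left out (-0.23, adjusted p = 0.0321).

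**Figure D4:**
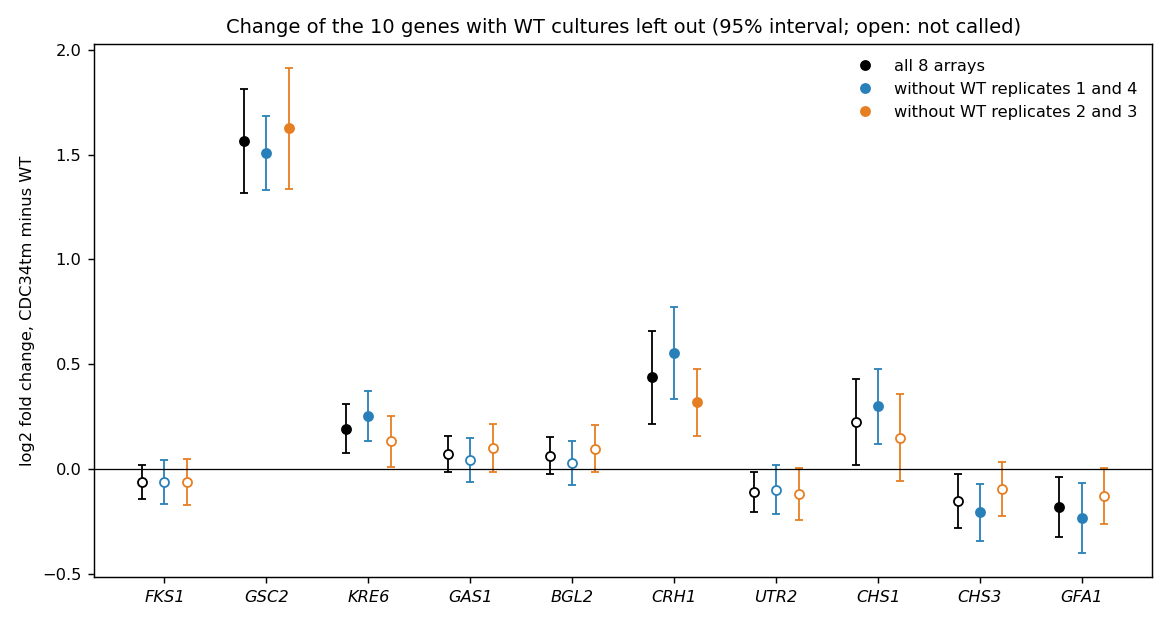
log2 fold change (CDC34tm minus WT) of the 10 genes with its 95% interval, for all 8 arrays and with either WT replicates 1 and 4 or WT replicates 2 and 3 left out; filled points passed the test and open points did not. GSC2 stays between 1.51 and 1.62 and CRH1 between 0.32 and 0.56, while KRE6, CHS1, CHS3 and GFA1 cross the threshold depending on which WT cultures are left out.

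The number of genes called thus moved with the WT cultures. Without WT replicates 1 and 4, 4 of the 10 were higher (GSC2, CRH1, KRE6 and CHS1) and 2 lower (CHS3 and GFA1), where 38.8% of all tested probe sets were called, 17.9% higher and 20.9% lower. Without WT replicates 2 and 3, GSC2 and CRH1 alone were called, where 48% of all tested probe sets were called, 25.5% higher and 22.5% lower. By limma 0 of the 10 were lower there, and 0 at an unadjusted p under 0.05. Centring each array on its median left GFA1 uncalled (adjusted p = 0.107) and brought in CHS1 (0.27, adjusted p = 0.0456), for 4 higher and 0 lower by limma, with 6 higher and 0 lower at an unadjusted p under 0.05. Over all tested probe sets the same centring moved the share of calls that were higher from 49.0% to 59.1%.

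The rest of the pathway was read from 4 lists with 47 genes in all, of which 12 rose, 6 fell and 29 did not pass the test, again close to the 38.6% called on the whole array. By direction 25.5% of the 47 were higher and 12.8% lower, against 18.9% and 19.7% of all tested probe sets. Called were 40% of the beta-1,3-glucan list, 45.5% of the beta-1,6-glucan list and 33.3% each of the chitin and precursor lists. The median log2 fold change of the 47 was 0.02, against 0.00 for all tested probe sets. Beta-1,3-glucan enzymes held the widest changes. Of 15 genes, 5 rose and 1 fell, with a median of 0.02. Leaving out WT replicate 4 raised the count of lower genes to 2, with CRR1 added (-0.46, adjusted p = 0.0381). Leaving out WT replicates 1 and 4 raised it to 3, with CRR1 (-0.51, adjusted p = 0.0384) and SPR1 (-0.52, adjusted p = 0.0186). Both genes were dim, at 39.7 to 72.3 for CRR1 and 85.3 to 186 for SPR1 in WT. Over the 20 alternatives the log2 fold change of SPR1 ran from -0.52 to 0.28, so its direction was not kept. SCW11, a glucanase-like wall protein of daughter cells, read 5989, 5748, 5727 and 5702 in CDC34tm against 2238, 2034, 2152 and 2540 in WT, a 2.58-fold rise (log2 fold change 1.37, limma adjusted p = 2.58e-06). No CDC34tm array came near the WT range. GAS3 and GAS5, homologues of GAS1, rose 1.47-fold (adjusted p = 1.40e-04) and 1.22-fold (adjusted p = 0.00416). EXG1, the major exo-beta-1,3-glucanase of the wall, rose 1.35-fold, from 8291 ± 240.1 in WT to 11168 ± 272 in CDC34tm (mean ± SD, n = 4 per strain, limma adjusted p = 4.59e-05). SCW10, a wall protein related to glucanases and named after its values were seen, rose 1.20-fold (adjusted p = 0.00169).

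GAS2, a homologue of GAS1 with a role in the spore wall, was the gene of this list that fell. It read 330.5, 315, 359 and 371 in CDC34tm and 699, 879.8, 624 and 913 in WT, a 2.19-fold fall without overlap (log2 fold change -1.13, limma adjusted p = 1.70e-04). Thus among the GAS genes, 2 rose, 1 fell, and GAS1 and GAS4 did not pass the test. Over all tested probe sets 38.6% were called, 18.9% higher and 19.7% lower, and so few genes cannot be told from that share. The other genes of the list that did not pass were FKS3, SMI1, EXG2, SPR1, SCW4, DSE4, ACF2 and CRR1, and with all arrays the log2 fold changes of the 9 lay between -0.34 and 0.16. DSE4, like SCW11 a gene of daughter cells, was at -0.07 with overlapping strains (limma adjusted p = 0.676).

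Of 11 further genes of beta-1,6-glucan synthesis, 3 rose and 2 fell, with a median of 0.06. KEG1, an essential membrane protein of the endoplasmic reticulum that binds Kre6, rose 1.30-fold (adjusted p = 0.00270). The glucosidase genes ROT2 and CWH41, which trim N-linked glycans in the same compartment, rose 1.29-fold (adjusted p = 0.00297) and 1.19-fold (adjusted p = 0.0142). KRE1, a wall glycoprotein needed for beta-1,6-glucan assembly, fell 1.42-fold. It read 2618, 1973, 2557 and 2416 in CDC34tm and 3352, 3387, 3388 and 3371 in WT (limma adjusted p = 0.00170), so that the WT cultures were nearly alike and every CDC34tm culture was lower. KNH1, a homologue of KRE9, fell 1.36-fold (adjusted p = 0.00597). KRE5, KRE9, SKN1, BIG1, ROT1 and CNE1 did not pass the test, with log2 fold changes between -0.27 and 0.15.

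Of 18 further chitin genes, 4 rose and 2 fell, with a median of 0.02. GNA1, the acetyltransferase that acts directly after Gfa1 in the precursor pathway, read 2889, 2860.0, 3061 and 2868 in CDC34tm and 1552, 1482, 1508 and 1475 in WT. All CDC34tm cultures were close to 1.9 times the WT level (1.93-fold, log2 fold change 0.95, limma adjusted p = 4.31e-06). Its rise and the fall of GFA1 thus stood side by side in consecutive steps, though GNA1 was called in all 20 alternatives and GFA1 in 8. The later genes of that pathway, PCM1 and QRI1, did not pass the test with all arrays. QRI1 passed it without WT replicates 1 and 4 (0.28, adjusted p = 0.00753), but its log2 fold change ran from -0.10 to 0.28 over the 20 alternatives. CTS1, the chitinase that opens the septum between mother and daughter, rose 1.80-fold, from 5895 ± 513 in WT to 10615 ± 477 in CDC34tm (mean ± SD, n = 4 per strain, limma adjusted p = 2.10e-05).

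Of 8 partners of Chs3 (SHC1, SKT5, BUD7, BCH2, CHS5, CHS6, BCH1 and CHS7), 4 were called, 2 higher and 2 lower. BNI4 and PFA4, whose products also act with Chs3, are outside this count and were not called with all arrays. All of these genes are a part of the chitin list, of which 33.3% was called. Over all tested probe sets 38.6% were called, 18.9% higher and 19.7% lower. SHC1, an activator of Chs3 in sporulation, rose 1.53-fold at a low signal, 104 to 134 in CDC34tm against 54.1 to 89.9 in WT (adjusted p = 0.00763). SKT5, its activator in growing cells, did not pass the test. The genes of the exomer complex, which carries Chs3 to the cell surface, were mixed: BUD7 fell 1.30-fold (adjusted p = 0.00275), BCH2 rose 1.15-fold (adjusted p = 0.0407), and CHS5, CHS6 and BCH1 did not pass. CHS7, a chaperone for the exit of Chs3 from the endoplasmic reticulum, fell 1.22-fold with overlapping strains (adjusted p = 0.0356). The calls of BCH2 and CHS7 were each lost without any 1 of the CDC34tm arrays (adjusted p from 0.0502 to 0.105). They were also lost without WT replicate 1 or 4, where their adjusted p lay between 0.0638 and 0.0946, and without both (0.143 for CHS7 and 0.175 for BCH2). CHS7 was not called without WT replicate 3 either (adjusted p = 0.0641). CHS2, BNI4, PFA4, CTS2, CDA1 and CDA2 did not pass the test either, and the 12 chitin genes that did not pass had log2 fold changes from -0.19 to 0.22 with all arrays. Of these, CHS2 was called without WT replicates 1 and 4 (-0.40, adjusted p = 0.0120), and PFA4 without WT replicates 2 and 3 (0.31, adjusted p = 0.0161). Over the 20 alternatives CHS2 ran from -0.40 to 0.02 and PFA4 from 0.13 to 0.31.

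Of the 3 genes that make UDP-glucose, PGM2, the main phosphoglucomutase, fell and the others did not pass the test, while 0 rose (limma, and 0 at an unadjusted p under 0.05). PGM2 read 334, 286, 306 and 313 in CDC34tm, 878 and 863 on WT replicates 1 and 4, and 390.4 and 376 on WT replicates 2 and 3. WT replicates 1 and 4 were thus high, as they were in heat shock genes. The log2 fold change was -0.87 with all arrays (limma adjusted p = 0.0282). Leaving out WT replicates 1 and 4 made it -0.30 and leaving out WT replicates 2 and 3 made it -1.45, past the threshold both times. It did not pass with WT replicate 1 (-0.68, adjusted p = 0.0645) or WT replicate 4 (-0.68, adjusted p = 0.0675) left out, nor without any 1 of the CDC34tm arrays (adjusted p from 0.0539 to 0.0732). UGP1, which makes UDP-glucose itself and is named here after its values were seen, read 5734, 5416, 6039 and 5517 in CDC34tm. Its WT signals were 6320.4 and 6338 on replicates 1 and 4 and 4701 and 4660 on replicates 2 and 3, so the CDC34tm arrays lay between the pairs. Its log2 fold change of 0.06 did not pass the test with all arrays (adjusted p = 0.691). Without WT replicates 1 and 4 it was higher (0.28, adjusted p = 0.00506), and without WT replicates 2 and 3 lower (-0.16, adjusted p = 0.0474).

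**Figure D5:**
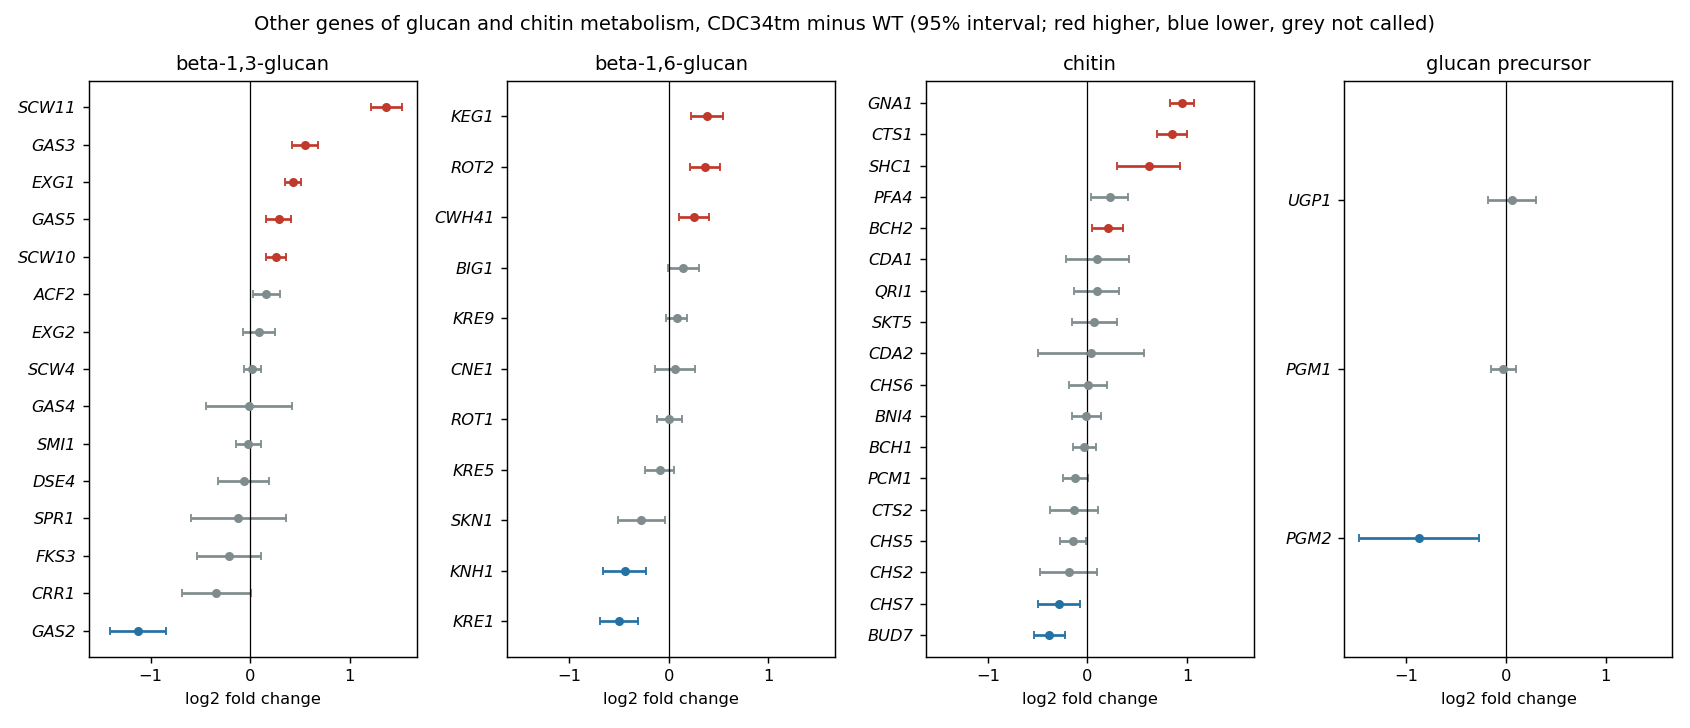
log2 fold change (CDC34tm minus WT, of signal + 16) with its 95% interval for the other genes of beta-1,3-glucan, beta-1,6-glucan, chitin and glucan precursor metabolism, sorted within each list; red genes were called higher, blue lower and grey neither. SCW11 (1.37) and GNA1 (0.95) lie far right, GAS2 (-1.13) and PGM2 (-0.87) far left, and most genes lie near 0.

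The genes whose pattern over the 8 arrays was most like that of GSC2 were found by the root mean square difference of log2(signal + 16), each gene centred on its own mean. The measure takes in both the step between the strains and the spread within them. Genes close to another by it therefore change to a like extent between the strains, by the way they were chosen. The closest was DSE1, a gene of daughter cells, at 0.156, followed by LSC2, a succinyl-CoA ligase subunit, at 0.178. SRT1, a cis-prenyltransferase, followed at 0.180, SCW11 at 0.186 and the sulfite pump gene SSU1 at 0.219. They rose between 2.58-fold (SCW11) and 3.57-fold (DSE1). Among the other 9 genes described here the closest to GSC2 was CRH1, at 0.600, and the farthest GFA1, at 0.883. The gene closest to BGL2 by the same measure was GAS1, at 0.0154, ahead of MES1 (0.0208), MED4 (0.0241), SUP45 (0.0258) and ADE8 (0.0267). For both BGL2 and GAS1, WT replicate 4 was lowest and CDC34tm replicate 2 highest, though GAS1 was higher and BGL2 lower on CDC34tm replicate 4 than on replicate 3. None of these 6 genes passed the test between the strains (limma adjusted p from 0.118 to 0.610 for the 5 beside BGL2, and 0.215 for BGL2).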

How the data were processed

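Total RNA was hybridised to 1 array per culture. The deposited values are intensities per probe set, MAS5 signals per the submitters' processing notes, with no version or scaling target named there. Trimmed by 2% at either end, all arrays had a mean of 1000, so any global difference in mRNA content was scaled away. Of 10928 probe sets, 5498 had 1 S. cerevisiae gene in the platform table, with 12 symbols updated through the RefSeq R64 gene table. Background was the 95th percentile of 1746 S. pombe probe sets, and a probe set was tested when above it on at least 4 arrays, which left 5437 and removed 61.

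log2(signal + 16) was fitted with limma 3.58.1 in R 4.3.3 (lmFit, eBayes with trend), two-sided, and p-values were adjusted by Benjamini-Hochberg across the 5437 probe sets. A fold change on this scale understates dim genes. The steps were tested on simulated data with equal, independent noise in both strains. That simulation held no split among the WT cultures and no wider spread in WT. The cultures were separate per the labels; 8 arrays limit the precision. Replicate numbers were not used as pairs in the main fit. The 10 genes, the lists, pairs and alternatives were chosen with earlier results of these data known. Named are the 10 genes, PST1, up to 4 called genes each way per list by size of change, pair partners, and the 5 genes most like GSC2 and BGL2. Saturation of bright probe sets could not be checked. Sequences were not used here, so a planned search for promoter motifs was not run.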

Additional observations from a re-analysis of the deposited data

Results flagged for a closer look

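In 58 groups of 4 arrays, from the 10 genes, PST1 and the called genes of the 4 lists, the highest or lowest array was checked for standing apart from the other 3 by Dixon's test, and 5 groups met it. Chance alone gives about 1 in 20. CHS3 read 2517 on CDC34tm replicate 3, below the other CDC34tm arrays at 2634 to 2649. GFA1 read 5142 on WT replicate 3, above the other WT arrays at 4379 to 4471, and its call was lost without that array (adjusted p = 0.0967). GAS3 read 3076 on WT replicate 2, above 2763 to 2811. SCW11 read 5989 on CDC34tm replicate 1, above 5702 to 5748, and GNA1 read 3061 on CDC34tm replicate 3, above 2860.0 to 2889. GAS3, SCW11 and GNA1 remained past the threshold in all 20 alternatives.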

How the results depend on the processing

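The 10 genes kept the direction of their change in all 200 combinations of gene and alternative. GSC2 and CRH1 were called in all 20 alternatives, FKS1 and BGL2 in none, and the others changed sides of the threshold at least once. The count of higher genes was 5 after the length trend was removed, with GAS1 and CHS1 added, and otherwise 2 to 4. The count of lower genes was 3 after quantile normalization, 2 without WT replicates 1 and 4, and 0 to 2 when 1 array was left out. By limma it was 0 with array weights, after centring, without the eBayes trend, with the length trend removed, with the replicate block, and without WT replicates 2 and 3. At an unadjusted p under 0.05 those settings gave 3, 0, 2, 0, 1 and 0 lower genes in that order. The numbers shared by arrays of the strains were not used as pairs in the main fit. Deviations of same-numbered arrays from their strain means correlated at 0.0381, 0.227, -0.0754 and 0.0629 for numbers 1 to 4. Of the 4 CDC34tm arrays, 2 were most like the WT array of their number. These values, from 4 numbers, cannot decide whether the numbers pair the arrays. With the block 975 probe sets were higher and 1018 lower, against 1028 and 1072. The 4 shifts within pairs kept their size with the replicate block (GSC2 minus FKS1 1.63, CRH1 minus UTR2 0.55, CHS3 minus CHS1 -0.37, KRE6 minus SKN1 0.47), where an exact test cannot go below 0.125. In the same order they were 1.57, 0.65, -0.50 and 0.56 without WT replicates 1 and 4, and 1.69, 0.44, -0.25 and 0.37 without WT replicates 2 and 3, where the smallest possible p is 0.133. With 1 array left out they ranged from 1.52 to 1.70, 0.43 to 0.63, -0.47 to -0.31 and 0.39 to 0.56, where it is 0.0571, so these alternatives say nothing of whether a call would hold. Of the 18 called genes of the lists, 15 were called in all 20 alternatives, the exceptions being BCH2, CHS7 and PGM2. Summed over the 4 lists, 11 to 14 genes were higher against 12 with all arrays, and 4 to 9 lower against 6, with the 9 found without WT replicates 1 and 4 and the 4 without any 1 CDC34tm array. Counts over all probe sets stayed within 1.5 times in every alternative. Counts of lower genes in single lists moved further: 1 to 3 for beta-1,3-glucan and 1 to 3 for chitin, against 1 and 2 with all arrays, and the precursor list changed with the calls of PGM2 and UGP1. Causes of these differences were not tested.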
